A study of Danio rerio with 30 samples.

Results

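The 5 genes described here are the most abundant haemoglobin rows of a spleen RNA-seq table from adult zebrafish, 5 of the 31901 gene rows. They were chosen for their abundance over all libraries, so how abundant they are is given as a description, without a test. Tests are given for differences between groups and for the relation of hbaa1 to other genes. The rule of abundance did not use these. The globin genes and the lists compared with them were, however, chosen with earlier results of these data known. Of the 5, 2 encode alpha chains: hbaa1 (ENSDARG00000097011) and si:ch211-5k11.8 (ENSDARG00000079078), which RefSeq also lists as hbaa1.2. The other 3 encode beta-type chains and carry the shared symbol HBE1, the name of a human beta-type globin that the names table gives to 7 gene IDs. They are called here beta-A (ENSDARG00000089087), beta-B (ENSDARG00000097238) and beta-C (ENSDARG00000069734), which are labels of convenience and not gene names.

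Haemoglobin, the oxygen carrier of red blood cells, is a tetramer of alpha and beta chains, each holding a haem group. Balanced output of both chains is needed because unpaired chains are unstable. Zebrafish red cells keep their nucleus and circulate with globin messenger RNA, and the spleen filters and stores blood, so spleen RNA holds that of red cells. Fish globin genes lie in clusters in which alpha and beta genes alternate, with separate embryonic and adult sets. In RefSeq's GRCz12tu annotation the gene order is nprl3, hbaa2, hbba2, ba1l, hbaa1, hbba1 and si:ch211-5k11.8, followed by embryonic genes from hbbe1.1 to hbae3 and then kank2. The 3 HBE1 rows could not be tied to a symbol in that order.

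Fish of the AB strain were sampled as adults at 100 days, 5 per group. The 6 groups were LPS and control fish incubated as eggs and larvae at 24 °C, LPS and control fish incubated at 28 °C, and LPS and control fish incubated at 32 °C; all adults were kept at 28 °C. LPS fish received an intraperitoneal 2 µl of 50 mg/ml lipopolysaccharide from Pseudomonas aeruginosa 10, a bacterial cell wall component that sets off innate immunity, and were killed 12 h later. The labels do not say what control fish received or the sex of the fish. Nothing in the labels states that replicates came from separate fish beyond their numbering; p-values here reflect spread among the samples given, which may in part be technical.

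Each library held 14840723 to 23401031 counts, and 17841 genes passed the filter on low counts, all 5 globin genes among them. No 2 libraries of a group agreed within sampling noise. The spleen marker TLX1 averaged 179 CPM, the count after scaling each library to a common size. Earlier results singled out 3 control libraries: 24 °C replicate 4 and 32 °C replicate 8, which held transcripts of other organs, and 32 °C replicate 2, which had many more detected genes (28134). Without them the globin genes were also called 0 of 5 times in each of the 13 contrasts, and other values are given without these libraries beside the results below.

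Together the 5 genes took 18.8% ± 7.15 of a library's counts (SD, n = 30), from 9.72% in control 28 °C replicate 2 to 34.8% in LPS 32 °C replicate 4. By counts hbaa1 was the most abundant gene in 16 of the 30 libraries, beta-A in 10 and si:ch211-5k11.8 in 4. Beta-B ranked 3 to 5 in each library and beta-C ranked 5 to 60. These ranks are not corrected for transcript length, so they do not order the genes by the number of transcripts. The share of hbaa1 ranged from 2.53% to 12.1%, that of si:ch211-5k11.8 from 1.36% to 9.35%, that of beta-A from 2.28% to 11.3%, that of beta-B from 1.46% to 6.33% and that of beta-C from 0.106% to 1.91%. The 95% Wilson interval of any of these shares was at most 0.0166 percentage points to either side, which covers counting error only, since the reads carry no molecular identifiers. The spread between fish was therefore many times the counting error. At the edge of the set, beta-C averaged 9935 CPM of total counts and the next haemoglobin row, hbaa2 (ENSDARG00000069735), an adult alpha gene, 5550 CPM; beta-B, the next above beta-C, averaged 30258 CPM.

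Of the 17 other rows named as globins, those after hbaa2 were far lower. The embryonic alpha genes hbae4 and hbae5 averaged 192 and 8.31 CPM of total counts. Myoglobin (mb), the oxygen store of muscle, averaged 86.7 CPM and cytoglobin (CYGB) 21.0 CPM. The HBE1 row ENSDARG00000045143 averaged 7.49 CPM, and each of the remaining 11 rows was below 1 CPM.

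**Figure D1:**
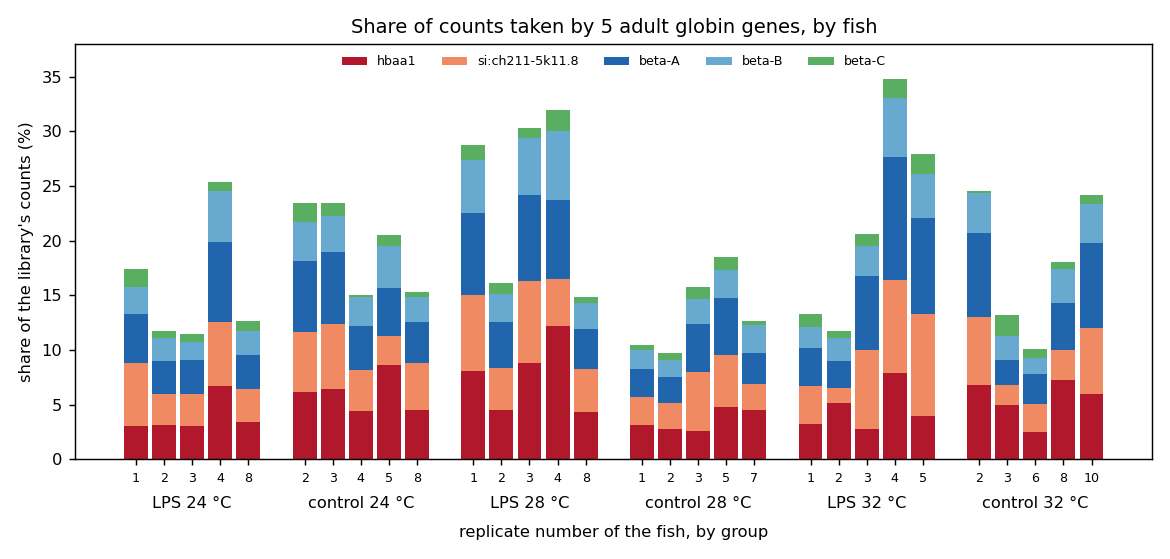
Share of each library's counts (%) taken by the 5 globin genes, one stacked bar per fish, grouped by treatment and incubation temperature with LPS fish left of control fish. The tallest bar is LPS 32 °C replicate 4 at 34.8% and the lowest is control 28 °C replicate 2 at 9.72%, and LPS and control bars overlap at each temperature.

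At 24 °C the summed share of the 5 genes was 17.4, 11.77, 11.4, 25.4 and 12.6% in LPS fish (replicates 1, 2, 3, 4 and 8), against 23.5, 23.4, 15.0, 20.5 and 15.3% in control fish (replicates 2, 3, 4, 5 and 8). LPS replicate 4 was the highest of the 10, and 3 of the 5 LPS fish lay below all control fish. At 28 °C the summed share was 28.8, 16.1, 30.3, 31.9 and 14.9% in LPS fish (replicates 1, 2, 3, 4 and 8), against 10.4, 9.72, 15.8, 18.5 and 12.6% in control fish (replicates 1, 2, 3, 5 and 7). Here 3 LPS fish lay far above all control fish and the other 2 within the control range. At 32 °C it was 13.3, 11.7, 20.6, 34.8 and 27.9% in LPS fish (replicates 1 to 5), against 24.5, 13.2, 10.1, 18.1 and 24.2% in control fish (replicates 2, 3, 6, 8 and 10). The groups overlapped across most of their range at 32 °C. On the mean of log2 shares, LPS fish were at 0.780 of the control level at 24 °C, 1.78-fold at 28 °C and 1.17-fold at 32 °C; without the 3 control libraries singled out above it was 0.733 at 24 °C and 1.35-fold at 32 °C.

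The first comparison asks how globin transcripts differed between LPS and control fish of one incubation temperature. No globin gene passed the threshold (adjusted p under 0.05, edgeR's quasi-likelihood test) at any temperature. For each of the 5, LPS and control fish overlapped at each temperature. Called were 0 of 5 globin genes at 24 °C, where 0.0168% of all tested genes were called, 0 of 5 at 28 °C (0.0112% called) and 0 of 5 at 32 °C (0.00561% called). With the mean of the temperatures 0 of 5 were called (0.0112% of all genes). DESeq2 called 0 of 5 in each of these contrasts as well. At an unadjusted p under 0.05 there were 0 of 5 at 24 °C (16.9% of all genes), 3 of 5 at 28 °C (hbaa1, beta-A and beta-B, against 8.19% of all genes), 0 of 5 at 32 °C (7.37%) and 0 of 5 on the mean (6.03%). Separation of LPS fish above control fish in CPM was seen in 1.96% of all genes at 24 °C, 0.701% at 28 °C and 0.224% at 32 °C, and separation below in 1.75%, 0.673% and 0.824%. In bulk tissue, fewer red cells and less globin RNA per red cell cannot be told apart.

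hbaa1, an adult alpha chain gene, took 3.02, 3.12, 2.99, 6.68 and 3.41% of counts in LPS fish at 24 °C, against 6.12, 6.39, 4.42, 8.64 and 4.53% in control fish. All LPS fish but replicate 4 lay below every control fish. Its fitted log2 fold change was -0.69 ± 0.41 (SE, edgeR adjusted p = 0.387), with 36672 ± 18386 CPM in LPS fish and 59160 ± 16544 CPM in control fish (SD, n = 5 each).

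At 28 °C hbaa1 took 8.10, 4.49, 8.76, 12.1 and 4.33% in LPS fish, against 3.16, 2.74, 2.58, 4.73 and 4.54% in control fish. In TMM-scaled CPM 3 LPS fish lay above every control fish and 5 of 5 above the control mean. The level was 90862 ± 51852 CPM in LPS fish and 34182 ± 13162 CPM in control fish (SD, n = 5 each), and the log2 fold change was 1.41 ± 0.41 (SE, unadjusted p = 0.00202, edgeR adjusted p = 0.354). At 32 °C hbaa1 took 3.26, 5.14, 2.77, 7.85 and 3.92% in LPS fish, against 6.82, 4.96, 2.53, 7.24 and 5.94% in control fish. These fish were intermixed, and the log2 fold change was -0.06 ± 0.41 (edgeR adjusted p = 0.983).

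The other alpha gene, si:ch211-5k11.8, averaged 38970 ± 17547 CPM in LPS fish and 43578 ± 13465 CPM in control fish at 24 °C (SD, n = 5 each). At 28 °C it averaged 61598 ± 25352 CPM in LPS fish and 33587 ± 16475 CPM in control fish, and at 32 °C 71758 ± 49904 CPM in LPS fish and 38230 ± 21642 CPM in control fish. The log2 fold changes were -0.16 ± 0.48, 0.87 ± 0.49 and 0.91 ± 0.49 at the 3 temperatures in turn (edgeR adjusted p = 0.900, 0.646 and 0.711). At 32 °C the 5 LPS fish spread over both ends, with 3 above every control fish and 1 below every control fish.

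Beta-A, a beta-type chain gene, had log2 fold changes of -0.30 ± 0.47, 1.0998 ± 0.47 and 0.68 ± 0.47 at 24, 28 and 32 °C (edgeR adjusted p = 0.776, 0.553 and 0.775). Beta-B had -0.31 ± 0.42, 1.31 ± 0.42 and 0.45 ± 0.42 (edgeR adjusted p = 0.741, 0.402 and 0.845). At 28 °C beta-B took 4.81, 2.61, 5.22, 6.33 and 2.37% in LPS fish, against 1.71, 1.53, 2.27, 2.52 and 2.61% in control fish. As with hbaa1, LPS replicates 1, 3 and 4 stood above all control fish and replicates 2 and 8 did not. Beta-C had log2 fold changes of 0.01 ± 0.59, 0.93 ± 0.59 and 0.85 ± 0.59 (edgeR adjusted p = 0.995, 0.688 and 0.783).

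Several of these values moved with single libraries. Without LPS 24 °C replicate 4 the log2 fold change at 24 °C was -1.05 for hbaa1, -0.66 for beta-A and -0.70 for beta-B, and over all leave-outs the highest values were -0.53, -0.13 and -0.10 in the same order. At 32 °C beta-A ran from 0.28 to 0.96 and beta-B from 0.066 to 0.65, both lowest without LPS 32 °C replicate 4. Without the 3 control libraries singled out above, beta-C had -0.26 at 24 °C and 0.40 at 32 °C, hbaa1 -0.78 and 0.24, si:ch211-5k11.8 -0.21 and 1.04, beta-A -0.37 and 0.87, and beta-B -0.36 and 0.65. Averaged over the temperatures, the log2 fold changes ran from 0.22 for hbaa1 to 0.60 for beta-C (edgeR adjusted p 0.813 to 0.858).

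**Figure D2:**
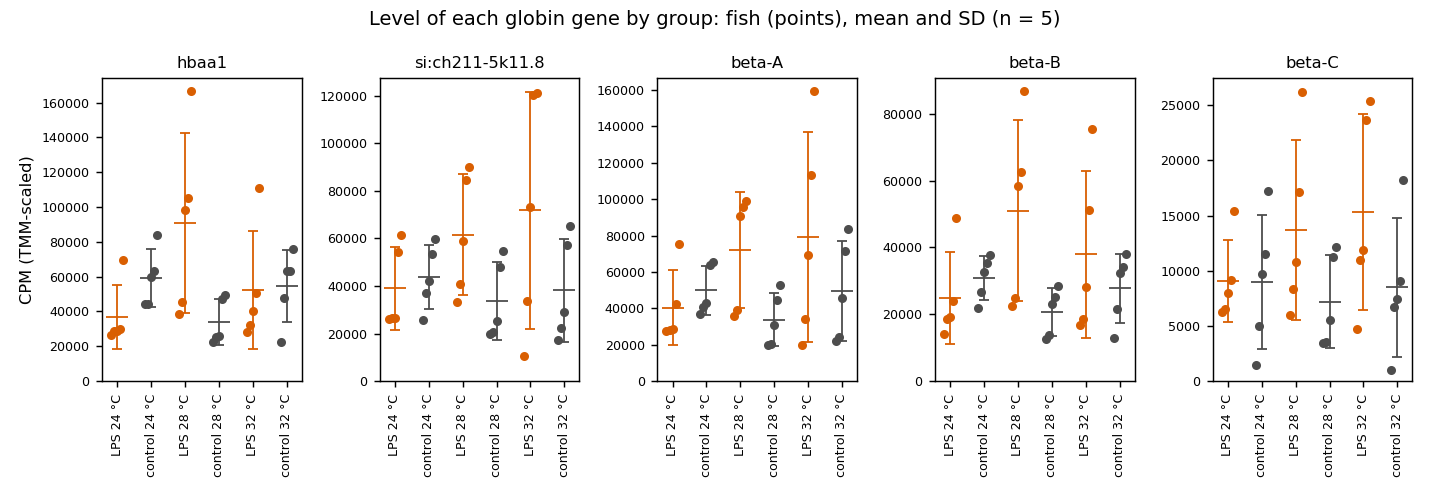
TMM-scaled level of each globin gene (CPM, one panel per gene with its own axis from 0) in the 6 groups, with fish as points and the mean and SD of 5 fish as bars, orange for LPS and grey for control. At 28 °C hbaa1 averaged 90862 CPM in LPS fish and 34182 CPM in control fish, and LPS and control fish overlap in each panel at each temperature.

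The second comparison asks whether the difference between LPS and control fish depended on incubation temperature. Its 3 contrasts share libraries with one another and with the contrasts above. Between 24 and 28 °C, 0 of 5 globin genes were called, where 0.751% of all genes were (134 genes). At an unadjusted p under 0.05 there were 3 of 5 (hbaa1, beta-A and beta-B), against 21.1% of all genes. The difference was below 0 for all 5, with a median of -1.40 on the log2 scale, against -0.14 over all tested genes. The 5 genes share libraries and several moved together over the fish, so they are not 5 separate results. hbaa1 had the largest of these differences among the 5, -2.10 ± 0.58 (edgeR adjusted p = 0.0653), and did not pass. It was called with DESeq2 (-2.08, adjusted p = 0.0146) and with limma voom (-2.37, adjusted p = 0.0241). With edgeR it was called in 4 of 30 leave-outs. These were without LPS 24 °C replicate 4 (-2.46), LPS 28 °C replicate 2 (-2.17) or 8 (-2.27, adjusted p = 0.05 after rounding), or LPS 32 °C replicate 4 (-2.09). Genes of any kind called in this contrast numbered 3 to 446 over the leave-outs, most without LPS 28 °C replicate 2. Over the other alternatives they numbered 33 to 818. The share of all genes called at each of these settings was not set beside the calls of hbaa1. Over all leave-outs the difference for hbaa1 ranged from -2.46 to -1.75, and without the 3 control libraries it was -2.19 (edgeR adjusted p = 0.0868). Beta-B differed by -1.62 ± 0.59 (edgeR adjusted p = 0.126), beta-A by -1.40 ± 0.66 (0.220), si:ch211-5k11.8 by -1.04 ± 0.68 (0.393) and beta-C by -0.92 ± 0.83 (0.556).

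Between 32 and 28 °C, 0 of 5 were called (0.112% of all genes), and at an unadjusted p under 0.05 there was 1 (hbaa1, against 10.1% of all genes). hbaa1 differed by -1.47 ± 0.58 (edgeR adjusted p = 0.369) and the other alpha gene, si:ch211-5k11.8, by 0.03 ± 0.68 (adjusted p = 0.994). Between 32 and 24 °C, 0 of 5 were called (0.0224% of all genes) and 0 of 5 had an unadjusted p under 0.05 (9.9% of all genes); the 5 differences ran from 0.63 for hbaa1 to 1.07 for si:ch211-5k11.8. Without the 3 control libraries hbaa1 had -1.17 between 32 and 28 °C and 1.01 between 32 and 24 °C, and beta-C -0.53 and 0.66. The difference between the responses of these 2 alpha genes was not tested.

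**Figure D3:**
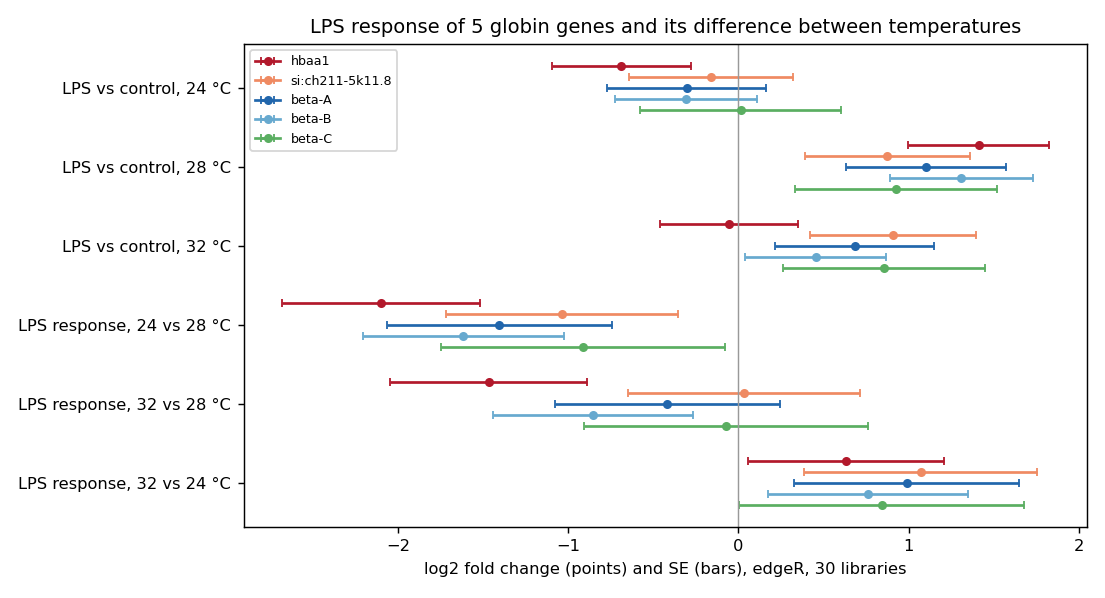
Log2 fold change between LPS and control fish (points, SE as bars) of the 5 globin genes at each temperature, and the differences of these responses between temperatures, from edgeR over 30 libraries. All 5 genes lie above 0 at 28 °C and below 0 in the difference between 24 and 28 °C, where hbaa1 is at -2.10 ± 0.58.

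The third comparison is between incubation temperatures within one treatment. Among control fish, 0 of 5 globin genes were called for 24 against 28 °C (2.47% of all genes called), 32 against 28 °C (0.633%) and 32 against 24 °C (0.0224%). None of the 5 had an unadjusted p under 0.05 there, against 19.9%, 14.4% and 15.7% of all genes, and DESeq2 called 0 of 5. hbaa1 averaged 59160 CPM in control fish of 24 °C and 34182 CPM in those of 28 °C, a log2 fold change of 0.79 ± 0.41 (edgeR adjusted p = 0.279). For 24 against 28 °C the other 4 had log2 fold changes of 0.32 to 0.58 in control fish. Without the 3 control libraries hbaa1 had 0.88 and the other 4 had 0.43 to 0.63. Among LPS fish edgeR called 0 genes of any kind in the 3 contrasts (0% of all genes), while 1594, 732 and 754 genes (8.93%, 4.1% and 4.23%) had an unadjusted p under 0.05 for 24 against 28, 32 against 28 and 32 against 24 °C, and DESeq2 called 16, 6 and 3. The globin genes with an unadjusted p under 0.05 among LPS fish were hbaa1 and beta-B for 24 against 28 °C and beta-A for 32 against 24 °C. For 24 against 28 °C in LPS fish the log2 fold change of hbaa1 was -1.31 ± 0.41 (edgeR adjusted p = 0.545).

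Of the 17 other globin rows, some did not pass the filter on low counts. Among those tested, hbae5 (ENSDARG00000045142), an embryonic alpha globin gene, was the one called in any of the 13 contrasts. It had 21.1, 6.60, 14.5, 12.4 and 13.7 CPM in control fish of 24 °C, against 3.36, 3.35, 3.50, 4.77 and 2.19 CPM in control fish of 28 °C. Every 24 °C fish lay above every 28 °C fish, and the log2 fold change was 1.99 ± 0.49 (edgeR adjusted p = 0.0307). In that contrast 2.47% of all genes were called and 19.9% had an unadjusted p under 0.05. The share of all genes with such a separation was not computed. hbae5 is described because it was called, so the separation of the same values is not further evidence. The gene was also called with DESeq2 (1.97, adjusted p = 0.0035) and with the other scalings and filters in edgeR. The call was lost with limma voom (1.93, adjusted p = 0.126), without control 24 °C replicate 4 (1.91, adjusted p = 0.135), without any 1 of control 28 °C replicates 1, 2, 3, 5 and 7 (1.87 to 2.07) and on leaving out all 3 control libraries singled out above (1.97, adjusted p = 0.120). In LPS fish hbae5 averaged 6.68 ± 2.51 CPM at 24 °C and 7.73 ± 5.07 CPM at 28 °C (SD, n = 5 each; log2 fold change -0.20 ± 0.47, edgeR adjusted p = 0.899). The difference between the LPS responses at 24 and 28 °C was -2.19 ± 0.67 for hbae5 (edgeR adjusted p = 0.0848).

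Fish differed less in the balance of alpha to beta counts than in which copy supplied them. The summed alpha counts were 0.892 to 1.36 times the summed beta counts over the 30 fish, with a within-group SD of 0.13 on the log2 scale, while the summed share of the 5 genes had a within-group SD of 0.51. The ratio of si:ch211-5k11.8 to hbaa1, the 2 alpha genes, ran from 0.265 to 2.60, a 9.80-fold range, with a within-group SD of 0.81. These copies may be near-identical and the sources used here do not say how reads shared by copies were counted, which leaves the level of each single copy uncertain. Ratios of counts also depend on transcript length, which is the same for a given gene in each fish.

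The alpha copy ratio was not spread evenly. It lay between 0.8 and 1.25 in 20 fish, below that in 6 and above it in 4. At 24 °C it was 1.90, 0.902, 0.995, 0.885 and 0.886 in LPS fish and 0.895, 0.942, 0.839, 0.305 and 0.949 in control fish. So 8 of these 10 fish were close to one another and 1 of each treatment stood apart, in opposite directions. At 28 °C it was 0.859, 0.864, 0.857, 0.355 and 0.896 in LPS fish and 0.812, 0.874, 2.098, 1.01 and 0.506 in control fish. At 32 °C it was 1.05, 0.265, 2.60, 1.09 and 2.38 in LPS fish and 0.909, 0.362, 1.00, 0.380 and 1.03 in control fish. Each of the 6 groups held at least 1 fish outside the band, and fish on the low side were in both treatments at 28 and 32 °C.

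The beta genes showed a matching pattern. The ratio of beta-A to beta-B ran from 1.02 to 2.47, and the 6 fish with a low alpha copy ratio had beta ratios of 1.02 to 1.41, below the 1.47 to 2.47 of the other 24 fish. Over 30 fish the log2 ratio of si:ch211-5k11.8 to hbaa1 and that of beta-A to beta-B had a Pearson r of 0.837 and a Spearman rho of 0.887, and r = 0.871 after centring on the group means. Without the 2 fish farthest from the median r was 0.801, and without the 3 control libraries 0.858. In shares of counts, si:ch211-5k11.8 had r = 0.908 with beta-A and 0.645 with beta-B, and hbaa1 had 0.857 with beta-B and 0.587 with beta-A. The 2 beta genes had r = 0.861 with each other, while the 2 alpha genes had 0.266. The points of these correlations are the same 30 libraries, and shares of one library compete for the same counts. They are descriptions without a test.

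**Figure D4:**
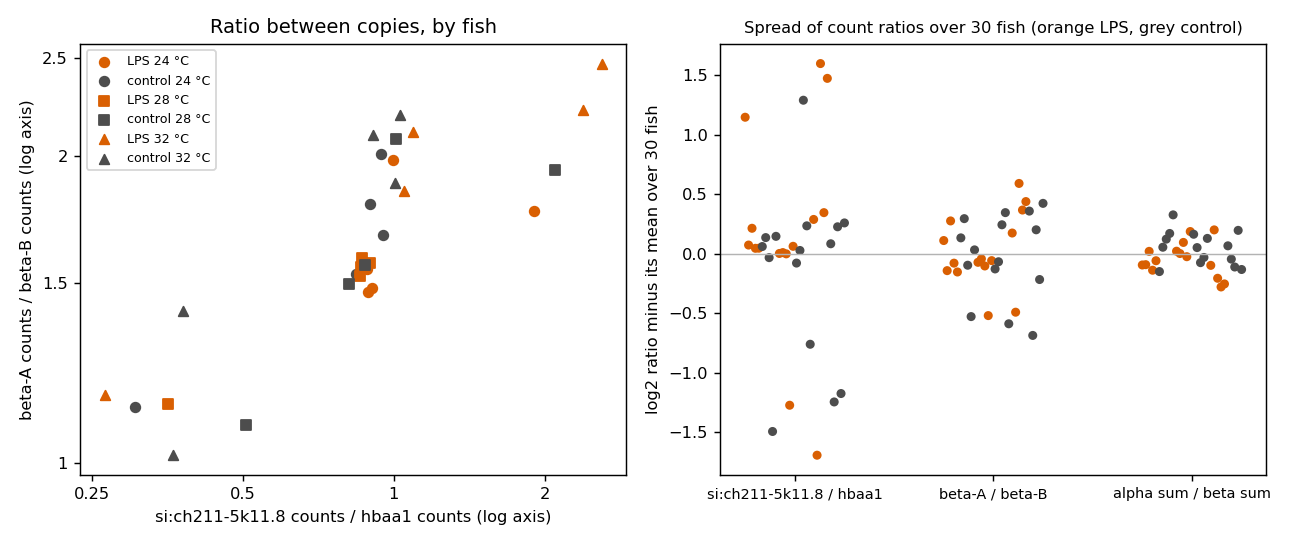
Left, the count ratio of the 2 alpha genes against that of beta-A to beta-B, one point per fish, both axes logarithmic, colour for treatment and shape for incubation temperature. Right, the spread over 30 fish of 3 log2 count ratios, each minus its own mean: the alpha copy ratio spans a 9.80-fold range and the alpha to beta ratio a 1.52-fold range.

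The larger spread of beta-C depended on the 3 control libraries singled out above. Its share had a within-group SD of 1.01 on the log2 scale, against 0.53 to 0.72 for the others, but without the 3 control libraries it had 0.68, against 0.53 to 0.74. Its correlation with the other 4 over the 30 fish was 0.10 to 0.26, and 0.32 to 0.56 without those libraries. With hbaa2, which was not among the 5, beta-C had r = 0.908, with 0.842 without the 2 fish farthest from the median and 0.846 without the 3 libraries. Its lowest shares were 0.106% in control 32 °C replicate 2 and 0.149% in control 24 °C replicate 4, against 0.319% to 1.91% in the other 28 fish. hbaa2 was also lowest in those 2 fish, at 716 and 289 CPM. These are 2 of the libraries that stood apart, and the part of their other transcripts in this was not tested.

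The remaining question was how the globin genes moved with the rest of the red cell program and with other cells of the spleen. Haem synthesis genes, whose product fills the globin chains, were measured by 15 rows, and 25 rows stood for erythroid genes other than globins, such as membrane proteins and transcription factors. None of either list was called in the 3 LPS against control contrasts or in the 3 differences between them. At 24 °C haem synthesis genes had 0 of 15 log2 fold changes above 0 (median -0.58) and erythroid genes 1 of 25 (median -0.60), against 40.7% above 0 and a median of -0.12 over all tested genes. The globin genes had 1 of 5 above 0 and a median of -0.30.

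At 28 °C haem synthesis genes had 13 of 15 above 0 (median 0.23) and erythroid genes 23 of 25 (median 0.49). Over all genes 51.7% were above 0, with a median of 0.02, and the globin genes had a median of 1.0998. At 32 °C the haem synthesis and erythroid medians were 0.44 and 0.32, with 14 of 15 and 21 of 25 above 0. Over all genes 47.4% were above 0, with a median of -0.02, and the globin genes had a median of 0.68. In the difference between the responses at 24 and 28 °C the medians were -0.84 for haem synthesis and -1.09 for erythroid genes, against -1.40 for the globin genes. Medians below 0 at 24 °C and above 0 at 28 °C were not confined to red cell lists. They were -0.50 and 0.15 for haem and iron recycling, -0.13 and 0.43 for B cells, and -0.24 and 0.31 for T and NK cells. Acinar pancreas had -1.29 and 0.39, liver -1.75 and 2.19 and ovary -6.07 and 0.29. The macrophage, thrombocyte, neutrophil, and stromal and endothelial lists did not share these signs. In the difference liver had -4.26 and acinar pancreas -1.65.

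alas2 (ENSDARG00000038643), which starts haem synthesis in red cells, averaged 7707 ± 2941 CPM in LPS fish and 5607 ± 2566 CPM in control fish at 28 °C (SD, n = 5 each; log2 fold change 0.46 ± 0.33, edgeR adjusted p = 0.720). hbaa1 had 1.41 in the same contrast, and the difference between these genes was not tested. uros, a later enzyme of the pathway, had a difference between the responses at 24 and 28 °C of -1.58 ± 0.44 (edgeR adjusted p = 0.0654). SLC4A1 (ENSDARG00000012881), the anion exchanger of the red cell membrane, had log2 fold changes of -0.75 ± 0.39 at 24 °C, 0.84 ± 0.39 at 28 °C and 0.39 ± 0.39 at 32 °C (edgeR adjusted p = 0.325, 0.590 and 0.864). cahz, the carbonic anhydrase of zebrafish red cells, and hemgn, an erythroid nuclear protein, had -0.60 ± 0.35 and -0.56 ± 0.34 at 24 °C and 0.45 ± 0.35 and 0.60 ± 0.34 at 28 °C. None of these passed.

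Over the 30 fish the log2 share of hbaa1 was related to 3 of 12 marker lists, each summed as log2 CPM of the counts outside the 5 globin genes. The lists were chosen with earlier results of these data known, which the adjusted p does not account for. It rose with erythroid genes other than globins (Pearson r = 0.677, Spearman rho = 0.647, permutation test, adjusted p = 3.6e-04 and 9.6e-04 over the 12 lists) and with haem synthesis (r = 0.605, rho = 0.614, permutation test, adjusted p = 0.00168 and 0.00188). It fell with the neutrophil list (r = -0.669, rho = -0.671, permutation test, adjusted p = 3.6e-04 and 9.6e-04). Each list is a sum, so its most abundant rows weigh most. In the haem synthesis list alas2 averaged 6227 CPM and the next row, uros, 230 CPM. The value for haem synthesis is therefore mostly a relation to alas2 and not to the whole pathway. After centring on the group means the 3 values of r were 0.661, 0.599 and -0.545 (permutation within groups, adjusted p = 0.00726, 0.00726 and 0.0426). Without the 2 fish farthest from the median of hbaa1 they were 0.633, 0.539 and -0.677, and without the 3 control libraries 0.727, 0.671 and -0.712.

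For haem and iron recycling r was 0.421 (permutation test, adjusted p = 0.0594), and for macrophages -0.374 (adjusted p = 0.0978; without the 3 control libraries -0.458, permutation test, adjusted p = 0.04998, with a Spearman adjusted p of 0.130). The other 7 lists (B cell, T and NK cell, thrombocyte, stromal and endothelial, acinar pancreas, liver and ovary) had r from -0.197 to 0.182 and did not pass. Beta-A and beta-B had r of 0.838 and 0.809 with the erythroid list, si:ch211-5k11.8 0.734 and beta-C 0.262, given without a test. With the neutrophil list they had -0.543, -0.620, -0.336 and 0.0515 in the same order, also without a test.

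**Figure D5:**
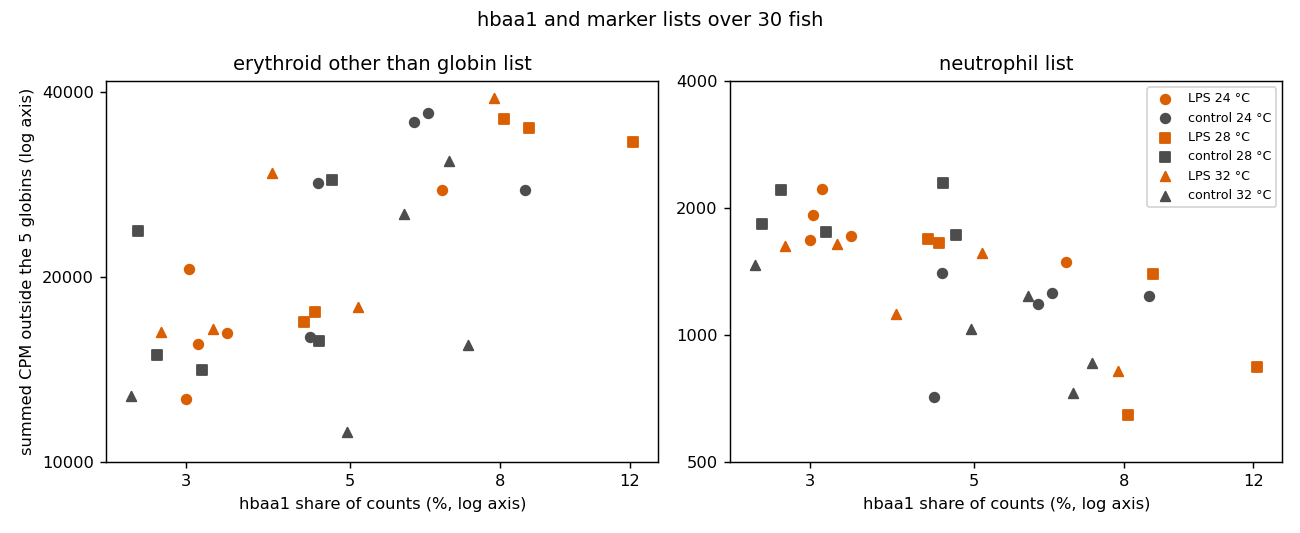
hbaa1 share of counts (%, log axis) against the summed CPM, outside the 5 globin genes, of erythroid genes other than globins (left) and of neutrophil markers (right, both log axes), one point per fish. Pearson r is 0.677 on the left and -0.669 on the right (n = 30).

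The neutrophil markers had median log2 fold changes of the opposite sign to those of the globin genes at 24 and 28 °C. At 32 °C and on the mean of the temperatures both medians were above 0. At 24 °C 9 of 11 neutrophil rows had a log2 fold change above 0 (median 0.74), against 40.7% of all genes. The list summed to 1490 to 2217 CPM in LPS fish and 712 to 1404 CPM in control fish. At 28 °C 0 of 11 were above 0 (median -0.37), against 51.7% of all genes. The sums were 646 to 1685 CPM in LPS fish and 1721 to 2297 CPM in control fish. Of single genes, 1.96% had all LPS fish above all control fish at 24 °C, and 0.673% had all below at 28 °C. At 32 °C 10 of 11 neutrophil rows were above 0 (median 0.59), against 47.4% of all genes. The sums were 822 to 1640 CPM in LPS fish and 728 to 1464 CPM in control fish. No listed marker was called in these contrasts. srgn, a granule proteoglycan, was called for the difference between the responses at 24 and 28 °C (1.33 ± 0.30, edgeR adjusted p = 0.0401), where 0.751% of all genes were called. For 24 against 28 °C in control fish, 0 of 11 neutrophil rows were above 0 (median -0.52), against 58.9% of all genes. Of the 11 neutrophil rows, 2 were called lower. Of all 17841 genes, 165 were called lower and 275 higher, 2.47% in either direction. In LPS fish 10 of 11 were above 0 for 24 against 28 °C (median 0.31), against 49.0% of all genes. Of the 14 neutrophil symbols listed, 11 were matched to a row, and mpx was not among them. The marker lyz (lysozyme) averaged 3.30 CPM and npsn 53.6 CPM, against 443 CPM for srgn. The part of these cells in the globin values was not tested.

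The genes most like hbaa1 over the 30 fish, by Pearson r of group-centred log2 CPM among 10103 genes with a symbol and at least 5 CPM and with the 5 globin genes left out, were MEF2D (0.911), NDRG2 (0.898), ANK1 (0.886), GMPS (0.883), NISCH (0.878), ftr92 (0.877), ANP32E (0.874), FBXO3 (0.865), ATXN7 (0.861) and CPLX2 (0.861). Among the globin genes left out, beta-B had r = 0.905 with hbaa1. Of the 10 listed, ANK1, ankyrin of the red cell membrane, is on the erythroid list. The lowest were RBM8A (-0.828), DLAT (-0.825), ALG6 (-0.823), ASNS (-0.815) and PTGES3 (-0.812). MEF2D, a transcription factor, had r = 0.911 with hbaa1, 0.879 with beta-B, 0.718 with beta-A, 0.514 with si:ch211-5k11.8 and 0.472 with beta-C. All 25 erythroid rows had r above 0 with hbaa1 (median 0.62) and 12 of 15 haem synthesis rows did (median 0.41), against 0 of 11 neutrophil rows (median -0.30) and 8616 of 17836 tested genes (median -0.02).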

How the data were processed

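Spleen RNA of 30 fish was measured in 6 groups. The authors deposited raw counts: whole numbers for each gene in each library, with no normalisation. Poly(A) RNA was used with a strand-marking kit, per the labels' protocols. The tools named in the submitters' processing notes are bcl2fastq, STAR, cutadapt 1.12, FastQC 0.11.5 and DESeq2 1.11.1, with build GRCz11. What counted the reads, with which annotation and strand setting, is not given in the sources used here.

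edgeR 4.0.16 (R 4.3.3) fitted all 30 libraries with a mean per group (TMM, filterByExpr, robust quasi-likelihood F test, 24 residual degrees of freedom, common biological coefficient of variation 0.503). Adjusted p is Benjamini-Hochberg over 17841 genes, in 13 contrasts, called under 0.05. The SE is the log2 fold change over the root of F. CPM are TMM-scaled unless given as of total counts. Permutation tests were two-sided with 100000 resamples. Alternatives were DESeq2 1.42.0, limma 3.58.1 voom, other scalings and filters, fits of only the groups compared, leave-outs, and a block for the replicate number. For shares, spreads and correlations, leaving out the 3 control libraries was chosen after seeing the data. Scripts were tested on simulated data.

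The globin genes, the lists and the alternatives were chosen with earlier results of these data known. Beside the globin rows, genes were named as the 10 most and 5 least like hbaa1, and per list as those called or else the 3 most abundant. Of these, genes of the red cell and neutrophil lists are described, apart from ALAS1, illr4 and NCF1. Their group-centred r with hbaa1 was -0.31, -0.46 and -0.21 in turn. The genes lyz, npsn and TLX1 were added after their values were seen.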

Additional observations from a re-analysis of the deposited data

Results flagged for a closer look

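Of 60 groups of 5 values checked, 9 held a fish whose gap to the nearest other exceeded Dixon's 95% limit. Chance gives about 1 in 20 for separate checks of normally distributed values. These 60 share fish and counts, so 9 of 60 cannot be read against that share. The hbaa1 share was 6.68% in LPS 24 °C replicate 4, against 2.99% to 3.41% in the other 4 fish of its group. The beta-C share was 1.63% in LPS 24 °C replicate 1, against 0.680% to 0.907%.

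The count ratio of si:ch211-5k11.8 to hbaa1 passed that limit in 3 fish. It was 1.90 in LPS 24 °C replicate 1 (0.885 to 0.995 in the others), 0.305 in control 24 °C replicate 5 (0.839 to 0.949) and 0.355 in LPS 28 °C replicate 4 (0.857 to 0.896). In that last fish the ratio of beta-A to beta-B also passed it, at 1.14, against 1.52 to 1.59.

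The ratio of beta-C to hbaa2 was 5.16 in control 24 °C replicate 4 (0.8002 to 1.99 in the others), where both genes were low. It was 3.09 in LPS 32 °C replicate 3 (1.67 to 2.01) and 1.82 in control 32 °C replicate 6 (1.37 to 1.47).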

How the results depend on the processing

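No globin gene was called in the LPS against control contrasts under any alternative run. In the difference between the responses at 24 and 28 °C, 1 of 5 was called with DESeq2, limma voom and the replicate number as a block (hbaa1, -2.23 with the block, adjusted p = 0.0226), and 0 to 1 with a library left out; over all alternatives its adjusted p was 0.0146 to 0.140. For that difference in response 134 genes of any kind were called in the main fit. Over the leave-outs there were 3 to 446, and over the other alternatives 33 to 818. The calls of hbaa1 were not set against the share of all genes at each setting. The hbae5 call in control fish was lost with the block (1.81, adjusted p = 0.146). Same-numbered libraries had correlations of -0.1665 to 0.4832 over 51 pairs, 17 of them above 0.1. Of those 17, 10 were the pairs among replicate 2 of all groups but LPS 24 °C (0.1572 to 0.4832). Not every pair passed 0.1 and the labels tie the numbers to no shared batch, so the numbers were not taken as pairing the samples; what the replicate 2 libraries share was not tested.

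Some log2 values changed sign, among them 0.63 for hbaa1 between 32 and 24 °C and 0.45 for beta-B at 32 °C; the cause was not tested. With the block they were -0.029 for beta-C at 24 °C, -0.32 for beta-B at 32 °C, -0.010 for hbaa1 on the mean of temperatures, -0.52 for si:ch211-5k11.8 between 32 and 28 °C, and -0.11 for hbaa1 between 32 and 24 °C. With limma voom they were -0.080 for beta-C at 24 °C, -0.13 for si:ch211-5k11.8 and 0.065 for beta-C between 32 and 28 °C. Leaving out the 3 control libraries singled out above, they were -0.26 for beta-C at 24 °C and 0.24 for hbaa1 at 32 °C. With 1 library left out, si:ch211-5k11.8 ran from -0.39 to 0.031 and beta-C from -0.20 to 0.39 at 24 °C, hbaa1 from -0.51 to 0.10 at 32 °C, and si:ch211-5k11.8 from -0.23 to 0.38 and beta-C from -0.36 to 0.42 between 32 and 28 °C.

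For the relation of hbaa1 to marker lists, all counts as denominator gave r = -0.525 for macrophages (permutation test, adjusted p = 0.0110, now past the threshold; rho = -0.435, adjusted p = 0.0460), -0.167 for B cells and -0.0469 for T and NK cells; by Spearman the liver list passed as well (rho = -0.425, permutation test, adjusted p = 0.0460). Without the 3 control libraries, a setting chosen after seeing the data, r was -0.4576 for macrophages (permutation test, adjusted p = 0.04998) and -0.05079 for B cells. Centring on the group means gave -0.0731 for B cells, 0.224 for thrombocytes, 0.0252 for liver and -0.117 for ovary.

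Leave-outs aside, counts of called genes ran from 0 to 283 at 24 °C, 0 to 69 at 28 °C, 0 to 16 at 32 °C and 1 to 6 on the mean; 33 to 818, 0 to 147 and 0 to 32 for the differences in response (24 and 28, 32 and 28, 32 and 24 °C); and, in the same order, 7 to 925, 0 to 663 and 0 to 292 in control fish and 0 to 16, 0 to 6 and 0 to 3 in LPS fish. A fit of only the groups compared is the same fit for the mean of temperatures and gave no separate value. Counting error was at most 0.0166 percentage points for any globin share.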
